A study of Rattus norvegicus with 56 samples.

Results

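MicroRNAs were sequenced in the heart tissue of Sprague-Dawley rat fetuses on embryonic day 19, and the 7 hearts with a ventricular septal defect (VSD group) were set against the 7 hearts of the control group (NC group). These 14 libraries were taken by their labels from the 56 samples of the series, and all 661 microRNAs listed for them were kept in view. Dams of the VSD group had been given dimethadione (DMO), the active metabolite of the anticonvulsant trimethadione, by oral gavage in repeated doses from the second week of gestation. NC dams had been given distilled water on the same schedule. The VSD fetuses had a defect of the septum between the ventricles and normally connected great vessels, and exposed fetuses with a visible outer malformation had been excluded. Exposure to DMO and the septal defect came together in this comparison and cannot be told apart in it. The 7 hearts of exposed fetuses whose septum was intact (non-VSD group) are therefore brought in below for some of the named microRNAs and lists. The RNA came from wax blocks of the fetal heart, so that each library pooled heart muscle with the vessels, blood and lining of the block. The dam of each fetus is not given, littermates could not be modelled, and the p-values measure only the spread between these samples.

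A microRNA is a short RNA cut from a hairpin precursor, either arm of which (5p or 3p) can be kept. It guides Argonaute proteins to messenger RNAs that pair with its seed, bases 2 to 8 from its 5′ end, and lowers their stability and translation. Several microRNAs are made almost only in certain cells. In heart muscle, and partly in skeletal muscle, these are miR-1, miR-133, miR-208 and miR-499. Others are miR-144 and miR-451 in the red cell lineage, miR-142 in white cells and miR-126 in endothelium. Smooth muscle makes miR-143 and miR-145, and epithelia make the miR-200 family. MicroRNA levels in a whole block of fetal heart therefore follow both what its cells express and which cells it holds.

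The mature sequences of the microRNAs on which the results turned are given here from RefSeq (rat build GRCr8), with the seed in capitals. Of the 661 listed microRNAs, 596 had a sequence there. The first set holds the 2 microRNAs that passed the adjusted threshold, miR-146a-5p (chr10:28350053-28350074, minus strand, inside a long noncoding RNA gene) and miR-6329 (chr8:61334292-61334314, minus strand, inside the span of the radixin gene Rdx), with miR-146b-5p, which shares the miR-146a-5p seed and differs from it by G18A and U21C over 22 bases counted from the 5′ end.
miR-146a-5p: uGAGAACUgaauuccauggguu
miR-146b-5p: uGAGAACUgaauuccauaggcugu
miR-6329: aAUGUGACucagcuaucugaaca
The second set holds microRNAs of blood cells, which made up most of the deepest decreases. Mir144 and Mir451 lie side by side at chr10:63459397-63459640 on the plus strand, and both arms of miR-142 come from a hairpin inside the span of Tspoap1 on the same chromosome.
miR-144-3p: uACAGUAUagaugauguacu
miR-144-5p: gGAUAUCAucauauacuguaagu
miR-451-5p: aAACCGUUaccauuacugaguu
miR-142-5p: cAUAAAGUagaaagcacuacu
miR-142-3p: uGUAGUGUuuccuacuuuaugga
The third set holds members of seed families in which 2 or more microRNAs differed in the same direction at an unadjusted p under 0.05, upward for miR-181, miR-29 and miR-130 and downward for miR-148 and miR-101.
miR-181a-5p: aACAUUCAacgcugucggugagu
miR-181b-5p: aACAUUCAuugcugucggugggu
miR-181c-5p: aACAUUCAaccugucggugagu
miR-181d-5p: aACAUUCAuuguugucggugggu
miR-29a-3p: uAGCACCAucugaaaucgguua
miR-29b-3p: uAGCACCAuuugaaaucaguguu
miR-130a-3p: cAGUGCAAuguuaaaagggcau
miR-301b-3p: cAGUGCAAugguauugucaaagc
miR-148a-3p: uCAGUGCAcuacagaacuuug
miR-148b-3p: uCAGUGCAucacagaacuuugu
miR-101a-3p: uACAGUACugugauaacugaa
miR-101b-3p: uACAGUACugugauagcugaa
The last set holds the muscle microRNAs that share the miR-1 seed. Counted from the 5′ end, miR-1b differs from miR-1-3p only by G17A, and miR-206-3p differs from miR-1-3p by A11G, A21G and U22G, so that reads could be split between the first pair in counting.
miR-1-3p: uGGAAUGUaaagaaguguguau
miR-1b: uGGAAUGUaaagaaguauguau
miR-206-3p: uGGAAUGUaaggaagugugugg

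Each library held between 1694811 and 9371130 counted reads, and the totals of the groups overlapped (NC median 6876536, VSD median 8159467, exact two-sided permutation test over 3432 groupings, p = 0.89). The smallest library was replicate 3 of the VSD group, VSD 3 for short, in which a microRNA without a read could still have been present at 1.77 CPM (reads per 1e+06 counted), a limit that covers counting error only. Apart from that limit, CPM are scaled by TMM, a normalization that assumes that most microRNAs did not change. The 6 heart muscle markers, of which some are also made in skeletal muscle, were counted in every library. So were the markers of skeletal muscle, red and white cells, endothelium, smooth muscle, epithelium, ciliated cells and liver. Of the marker microRNAs looked up, the neural miR-124-3p alone was at 0 in any library (2 NC hearts). One control library, NC 2, stood apart. Its summed level of the muscle list was 13616 CPM, against 74985 to 240709 in the other NC hearts, that of the red cell list was 2678 against 17737 to 88106, and that of the epithelial list was 20334 against 1318 to 8139. On the first principal component of log2 levels, which held 58.9% of the variance, NC 2 lay beyond VSD 1, VSD 4 and VSD 5 (13.1 to 16.9), while the other NC hearts lay between -21.2 and 3.81. Counts of list members are given with and without it where they differed. NC 2 was picked out from these same values, and no label gives a reason to leave it out. As it lay on the side of the VSD hearts, leaving it out tends by itself to widen the group differences. Calls gained without NC 2 therefore show dependence on 1 library and are no added support.

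Of the 661 microRNAs, 469 had enough counts to be tested, and 192 did not. A DE-microRNA is one whose unadjusted p in edgeR's quasi-likelihood test was under 0.05 and whose level was changed 2-fold or more (to 0.5 or less where it fell). There were 32 DE-microRNAs (6.82% of those tested), 12 upregulated (2.56%) and 20 downregulated (4.26%) in the VSD group. At an unadjusted p under 0.05 alone, 31 were higher (6.61%) and 59 lower (12.6%). After Benjamini-Hochberg adjustment over all 469, 2 remained (0.426%), miR-146a-5p upward and miR-6329 downward. Both lost that call when NC 1, NC 3, VSD 1 or VSD 5 was left out, and miR-6329 also without VSD 2 or VSD 4, with log2 fold changes of 0.94 to 1.12 and -1.80 to -1.55 over all 14 such fits. The downregulated DE-microRNAs were the more abundant, with a median level of 514 CPM and 13 of 20 above 100 CPM. The upregulated ones had a median of 25.3 CPM and 1 of 12 above 100, against 66.4 CPM and 197 of 469 among all tested. Scaling by library size in place of TMM moved the median log2 fold change of all tested microRNAs from -0.05 to 0.32, and the DE-microRNAs then numbered 33 up (7.04%) and 12 down (2.56%). Leaving out NC 2 raised the count to 83 DE-microRNAs (17.5% of 474, with 47 or 9.92% up and 36 or 7.59% down) and the count at an adjusted p under 0.05 to 77 (16.2%, with 36 or 7.59% up and 41 or 8.65% down). All 32 DE-microRNAs were DE-microRNAs without NC 2 as well. At an unadjusted p under 0.05 in either direction there were 90 (19.2%) with NC 2. Leaving NC 2 out gave 167 of 474, of which 80 (16.9% of those tested) were higher, and library size scaling gave 116 of 469. Counts of list members in those fits are to be read beside these larger numbers.

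**Figure D1:**
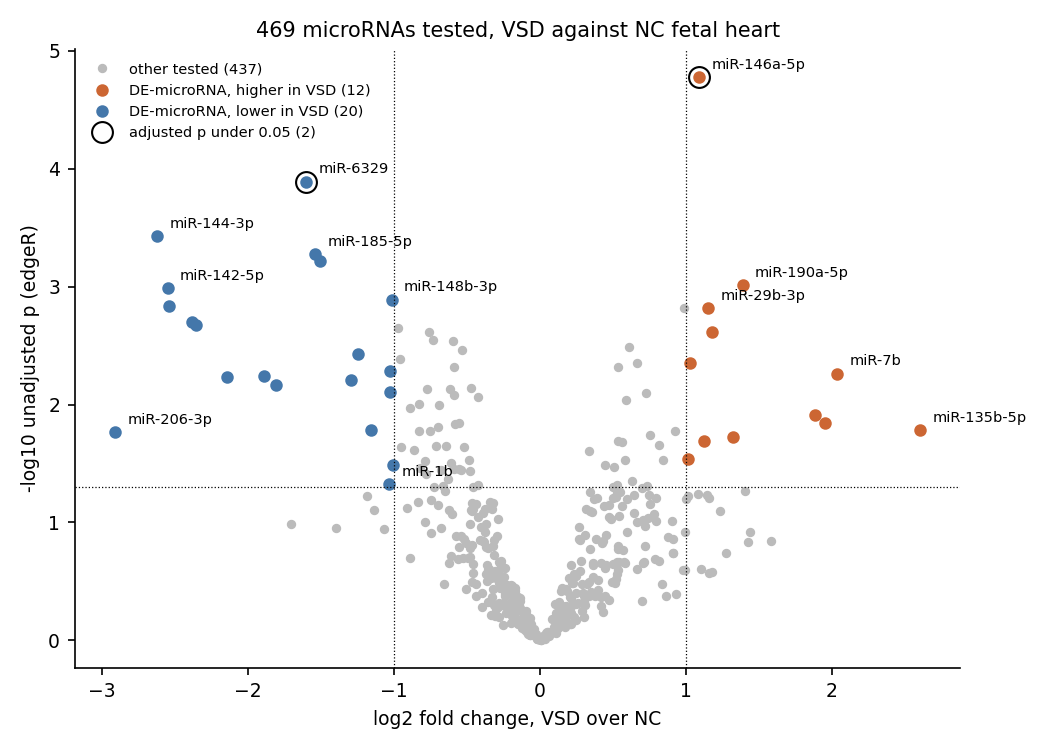
Log2 fold change of VSD over NC (x axis) against -log10 of the unadjusted p of edgeR (y axis) for the 469 microRNAs tested, with dotted lines at the DE-microRNA thresholds. The 12 upregulated (orange) and 20 downregulated (blue) DE-microRNAs lie outside the dotted lines, and the rings mark miR-146a-5p and miR-6329, the 2 at an adjusted p under 0.05.

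The groups did not overlap for 4 microRNAs, 0.853% of those tested. miR-146a-5p and miR-181a-5p were higher in every VSD heart than in any NC heart (0.426%), and miR-423-5p and miR-1306-5p were lower (0.426%). miR-146a-5p, which is induced by NF-κB and dampens the signalling of Toll-like receptors, lay at 176 to 305 CPM in NC hearts (median 213) and 445 to 528 CPM in VSD hearts (median 503). The 7 VSD hearts clustered tightly above the highest control, which was NC 2. The increase was 2.13-fold, or 1.09 ± 0.18 (SE) on the log2 scale, with edgeR's adjusted p = 0.00787. Its seed partner miR-146b-5p was more abundant, at a median of 1012 CPM in NC and 949 CPM in VSD, and its log2 fold change was -0.32 ± 0.22 (SE), edgeR's adjusted p = 0.396. As these sequences differ at 2 bases only, reads could have been shared between them in counting.

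miR-181a-5p, known for setting the sensitivity of lymphocyte receptors and expressed widely in the vasculature, was an abundant microRNA that moved little. Its level ranged from 2346 to 2885 CPM in NC hearts (median 2585) and from 2888 to 4101 CPM in VSD hearts (median 3126). The highest NC heart, NC 2, and the lowest VSD heart, VSD 4, were nearly level. The log2 fold change was 0.33 ± 0.13 (SE), with an unadjusted p of 0.0246 and edgeR's adjusted p = 0.175. Under library size scaling it was 0.73, and without VSD 3 it was 0.19. Of the 4 tested microRNAs with the miR-181 seed, 3 were higher at an unadjusted p under 0.05, where 6.61% of all tested were. miR-181d-5p went from a median of 484 to 848 CPM (log2 0.59 ± 0.20, SE) and miR-181c-5p from 90.7 to 136 CPM (log2 0.50 ± 0.22, SE), and for each of them 4 of 7 VSD hearts lay above all NC hearts. Without NC 4 the log2 fold change of miR-181c-5p was 0.32. For miR-181b-5p the log2 fold change was 0.32 ± 0.17 (SE) with an unadjusted p of 0.0766. miR-181c-5p and miR-181d-5p, neighbours on chromosome 19, were picked out after their values had been seen.

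miR-423-5p, a microRNA of many tissues that has been measured in plasma in heart failure, lay between 373 and 741 CPM in NC (median 484) and between 295 and 363 CPM in VSD (median 336). NC 1 was the highest and NC 2 the lowest control, just above the VSD hearts. Its log2 fold change was -0.60 ± 0.17 (SE), edgeR's adjusted p = 0.0753, and it shrank to -0.19 under library size scaling. miR-1306-5p lay between 15.3 and 48.8 CPM in NC (median 18.6) and between 9.27 and 15.1 CPM in VSD (median 12.5). Again NC 1 was the highest and NC 2 the lowest control, close to VSD 7. The log2 fold change of miR-1306-5p was -0.97 ± 0.27 (SE), edgeR's adjusted p = 0.0716. Its hairpin (mature chr11:96213968-96213989, plus strand) lies in the span of Dgcr8, the gene of the protein that recognises microRNA hairpins for Drosha.

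A downregulated DE-microRNA lay nearby on chromosome 11. miR-185-5p (chr11:96169041-96169062, plus strand, in the span of Tango2) ranged from 204 to 1444 CPM in NC hearts (median 792) and from 172 to 458 CPM in the VSD group (median 272). The 6 NC hearts other than NC 2 lay above every VSD heart, and NC 2 lay below 6 of the 7. The fold change was 0.343 (log2 -1.54 ± 0.35, SE), with edgeR's adjusted p = 0.0569, and 0.00373 without NC 2. In humans DGCR8, TANGO2 and MIR185 lie in the region deleted in DiGeorge syndrome, in which ventricular septal defects are common. The other arm of the Dgcr8 hairpin, miR-1306-3p, had a log2 fold change of -0.14 (edgeR's unadjusted p = 0.703). Neither miR-1306-5p nor miR-185-5p was among the named microRNAs that differed between VSD and non-VSD hearts (below). Whether other genes near these hairpins changed was not measured here, and a link of this region to the septal defect was not tested.

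**Figure D2:**
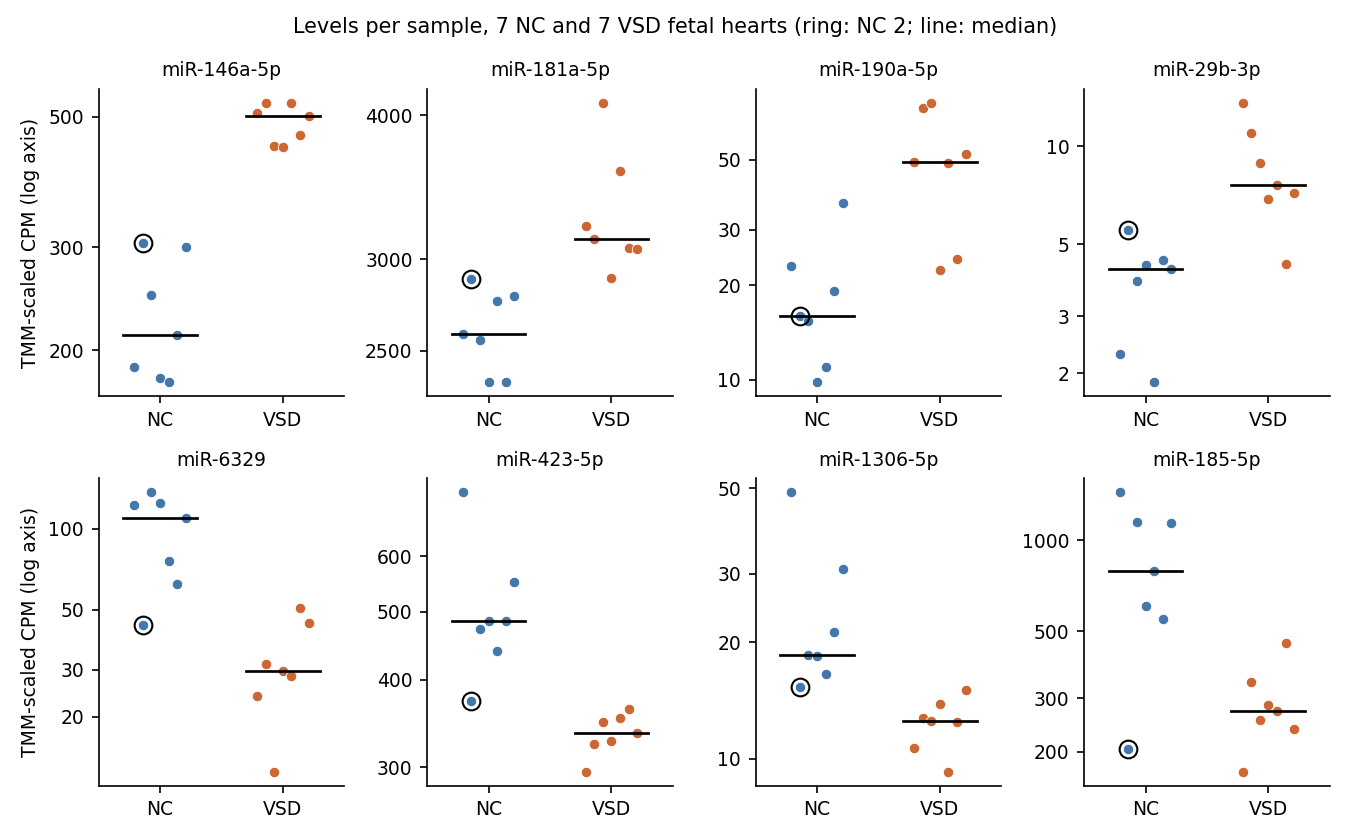
TMM-scaled CPM on a log axis in each of the 7 NC (blue) and 7 VSD (orange) hearts for 8 microRNAs, with the group median as a line and a ring around NC 2. miR-146a-5p and miR-181a-5p do not overlap upward and miR-423-5p and miR-1306-5p do not overlap downward, while for miR-6329 and miR-185-5p NC 2 falls within the range of the VSD hearts.

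The strongest decrease by p was that of miR-6329, a rodent microRNA with little known of its function. Its level ranged from 43.9 to 137 CPM in NC hearts (median 109) and from 12.5 to 50.8 CPM in VSD hearts (median 29.5). NC 2 was the lowest control and lay below VSD 6 and VSD 7, the only overlap. The level fell to 0.329 of that of NC (log2 -1.60 ± 0.32, SE), with edgeR's adjusted p = 0.0301. miR-3473, also annotated in rodents only, went from a median of 50 CPM in NC (16.2 to 92) to 20.4 CPM in VSD (10.4 to 23.8). All VSD hearts lay below the 6 NC hearts other than NC 2, and the log2 fold change was -1.51 ± 0.35 (SE), edgeR's adjusted p = 0.0569.

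Blood cell microRNAs made up most of the deepest decreases. All 5 red cell microRNAs (miR-144-3p, miR-144-5p, miR-451-5p, miR-451-3p and miR-486) were downregulated DE-microRNAs, where 4.26% of all tested were. Their median log2 fold change was -2.36, beside -0.05 over all tested microRNAs. miR-451-5p, which is processed by Argonaute 2 without Dicer and supports red cell maturation, went from a median of 20222 CPM in NC (1625 to 61362) to 5750.4 CPM in VSD (2611 to 15390.0), a log2 fold change of -1.89 ± 0.59 (SE). miR-144-3p, cut from the neighbouring hairpin, went from 727 CPM (115 to 1884) to 135 CPM (34.4 to 270.4), a log2 fold change of -2.62 ± 0.58 (SE), edgeR's adjusted p = 0.0569. In both, NC 1 and NC 7 were among the highest and NC 2 lay within or below the VSD range, so that the groups overlapped through NC 2, and through NC 4 as well.

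miR-144-5p went from a median of 1077 CPM in NC (92.3 to 2632) to 139 CPM in VSD (95.3 to 759), log2 -2.39 ± 0.64 (SE). miR-486, also placed on the red cell list, went from 11149.7 CPM (845 to 25809) to 1674 CPM (600.0 to 8256), log2 -2.36 ± 0.64 (SE). Whether its reads came from red cells only was not tested. VSD 6 was the highest VSD heart in all 4 of these, and NC 2 was the lowest or second lowest library in 3 of them. None of the 5 passed edgeR's adjusted threshold with NC 2 in the fit (lowest adjusted p = 0.0569), and all 5 did without it, when the list median was -2.63. The summed level of the list ranged from 2678 to 88106 CPM in NC and from 3378 to 24684 CPM in VSD. In a whole block, fewer blood cells in the chambers and less of these microRNAs per cell cannot be told apart.

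Among the white cell microRNAs the 2 arms of miR-142, which is made in all blood lineages and is required for their function, were downregulated. miR-142-5p went from a median of 763 CPM in NC (75.4 to 1708) to 107 CPM in VSD (41.2 to 453), log2 -2.55 ± 0.63 (SE), edgeR's adjusted p = 0.0645. miR-142-3p went from 566 CPM (84.9 to 1849) to 248 CPM (89.7 to 473), log2 -1.81 ± 0.58 (SE), edgeR's adjusted p = 0.0997. In both the controls spread widely, with NC 1, NC 3 and NC 7 highest and NC 2 among or below the VSD hearts. Beside them and miR-3590-3p, no white cell microRNA had an unadjusted p under 0.05. miR-223-3p, abundant in granulocytes and monocytes, had a median of 32.7 CPM in NC and 37.4 in VSD (log2 0.18 ± 0.19, SE), and miR-150-5p, abundant in mature lymphocytes, had 162 and 170.1 CPM (log2 -0.14 ± 0.21, SE).

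The white cell list as drawn up also held miR-3590, and with it 3 of 8 tested members were lower at an unadjusted p under 0.05. None was higher, and 12.6% of all tested microRNAs were lower. The summed level of the list ranged from 454 to 3669 CPM in NC and from 285 to 1142 CPM in VSD, and the list median was -0.77. The reference, however, places the Mir3590 hairpin at chr3:90229235-90229308 on the plus strand, opposite Mir130a, and without it, a count added after its position had been seen, the list held 2 of 7 lower and a median of -0.745. miR-3590-3p itself was scarce, at a median of 9.05 CPM in NC (1.14 to 21.8) and 2.06 CPM in VSD (0 to 5.15), log2 -2.54 ± 0.66 (SE). Like miR-142-5p it was highest in NC 1, NC 3 and NC 7 and lowest in VSD 3, where it had no count.

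**Figure D3:**
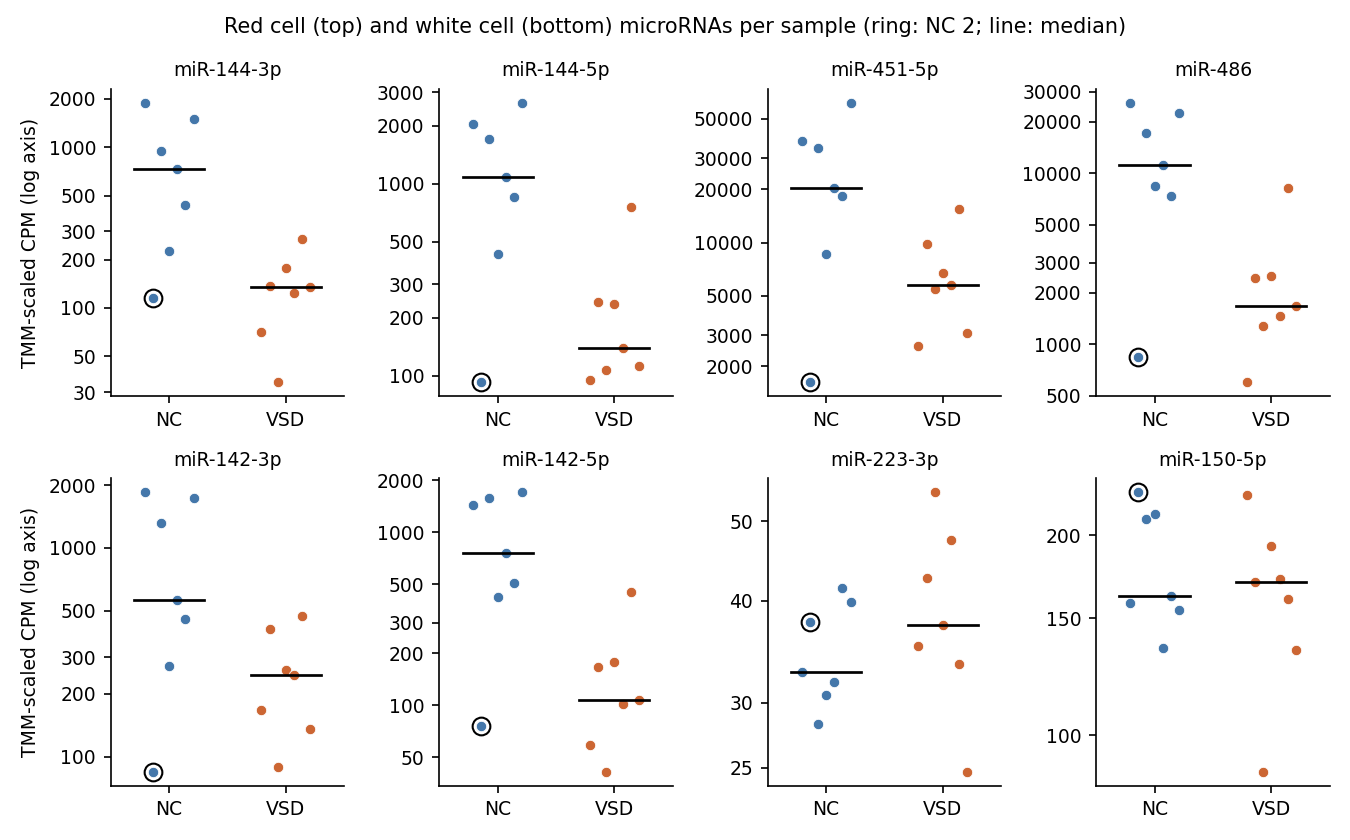
TMM-scaled CPM on a log axis in each NC (blue) and VSD (orange) heart for 4 red cell (top) and 4 white cell (bottom) microRNAs, with the group median as a line and a ring around NC 2. The medians of miR-144, miR-451, miR-486 and miR-142 are lower in VSD, with NC 2 at the level of the VSD hearts, and those of miR-223-3p and miR-150-5p lie close together.

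Heart muscle microRNAs were spread widely within both groups, and the groups overlapped. Of 12 tested members of the muscle list, none was higher and 2 were lower at an unadjusted p under 0.05, miR-1b and miR-206-3p, where 12.6% of all tested microRNAs were lower. The list median was -0.38. Without NC 2, 3 members were lower, and under library size scaling 1 was higher and 1 lower with a median of 0.04. miR-1b, one base apart from miR-1-3p and among the 5 most abundant microRNAs of the NC group, had a median of 61352 CPM in NC (9318 to 143214) and 29332 CPM in VSD (8741 to 56246), log2 -1.03 ± 0.48 (SE), edgeR's adjusted p = 0.257. miR-1-3p, which promotes muscle differentiation and restrains cardiomyocyte proliferation, had 25963 CPM in NC (2445 to 79068) and 14321 CPM in VSD (2841 to 23474), log2 -1.18 ± 0.58 (SE) with an unadjusted p of 0.0596. NC 3 was the highest library for both, and NC 2, VSD 1 and VSD 4 were the lowest. Without NC 2, the lowest control for both, they passed edgeR's adjusted threshold, at 0.0406 for miR-1b and 0.0495 for miR-1-3p. As NC 2 was picked out from these values, that gain is no added support.

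None of the microRNAs coded in myosin genes had an unadjusted p under 0.05. miR-208a-3p, from Myh6, the main myosin gene of the adult rodent heart, had a median of 51.3 CPM in NC (24.3 to 83.5) and 57.2 CPM in VSD (43.2 to 103), log2 0.24 ± 0.28 (SE). For miR-208b-3p, from Myh7, the main myosin gene of the fetal ventricle, the medians were 689 and 417 CPM, log2 -0.33 ± 0.64 (SE), and the sign turned under library size scaling (0.11). miR-499-5p, from Myh7b, had 3136 and 1935 CPM (log2 -0.51 ± 0.55, SE). NC 2 and VSD 4 were lowest, at 303 and 415 CPM, while every other NC heart held at least 1922 CPM. miR-133a-3p, which shares its transcript with miR-1-3p, had 9979 and 5747 CPM (log2 -0.44 ± 0.53, SE), with VSD 1 and VSD 4 low and VSD 7 the highest of all 14 hearts.

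miR-206-3p, the skeletal muscle member of the family, had the lowest log2 fold change of all DE-microRNAs, -2.91 ± 1.09 (SE, edgeR's adjusted p = 0.149), and the level was high in a pair of controls only. NC 4 held 1625 CPM and NC 6 held 3163 CPM, whereas the other 5 NC hearts lay between 24.1 and 153 CPM and the VSD hearts between 28.2 and 246 CPM. The group medians stood the other way round, 49.5 CPM in NC and 66.2 CPM in VSD. Without NC 6 the log2 fold change was -1.78, and by limma on log2(CPM + 1) it was -0.82.

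Endothelial and smooth muscle microRNAs, also part of every heart block, gave smaller differences. miR-126a-3p, from Egfl7 of endothelium, had a median of 13256 CPM in NC (9884 to 22029) and 18765 CPM in VSD (13668 to 19425), log2 0.35 ± 0.18 (SE), and neither of the 2 endothelial members passed an unadjusted p under 0.05. miR-143-3p, of smooth muscle and the most abundant microRNA of the NC group, had 221958 CPM (173878 to 399244) and 171520.0 CPM (133428 to 216222), log2 -0.62 ± 0.20 (SE), with 4 VSD hearts below every control. The effect was -0.16 under library size scaling, and its neighbour miR-145-5p had a log2 fold change of 0.11 ± 0.19 (SE). Of the other most abundant microRNAs, miR-21-5p had 139467 and 109886 CPM (log2 -0.26 ± 0.21, SE), and its sign turned under library size scaling. miR-30a-5p, abundant in cardiomyocytes, was lower in 6 VSD hearts than in any control (58644 and 41802 CPM, log2 -0.43 ± 0.14, SE), but its log2 fold change was -0.03 under library size scaling. Of the miR-30 family, 2 of 11 tested members were lower and none higher at an unadjusted p under 0.05, beside 12.6% lower among all tested, with a list median of -0.39 that became 0.04 under library size scaling. Without NC 2, 4 were lower.

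Epithelial microRNAs were higher in some VSD hearts and in NC 2. All 16 tested members of the epithelial list had log2 fold changes above 0, where 46.7% of all tested microRNAs did, with a median of 1.14, and 2 of them, miR-96-5p and miR-135b-5p, were upregulated DE-microRNAs. miR-96-5p, from the sensory and epithelial miR-183 cluster, had a median of 22.7 CPM in NC (13.1 to 122) and 79.8 CPM in VSD (14.8 to 321), log2 1.95 ± 0.71 (SE), edgeR's adjusted p = 0.147. miR-135b-5p had 1.47 CPM (0.164 to 18.4) and 10.7 CPM (4.17 to 95.5), log2 2.61 ± 0.97 (SE), edgeR's adjusted p = 0.149. In both, VSD 1, VSD 4 and VSD 5 lay above all controls and the other 4 VSD hearts overlapped with them.

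The same 3 VSD hearts were high in epithelial microRNAs that were not DE-microRNAs. miR-200b-3p, which keeps epithelial cells epithelial by repressing Zeb1 and Zeb2, ranged from 104 to 5586 CPM in NC (median 649) and from 849.9 to 5205 CPM in VSD (median 1343), log2 0.83 ± 0.83 (SE). Its highest level was that of NC 2. miR-205 of squamous epithelium, miR-141-3p of the miR-200 family and miR-449a-5p of ciliated epithelium, picked out after their values had been seen, had 647, 122 and 1117 CPM in NC 2, and at most 209, 31.1 and 108 CPM in the other NC hearts. Summed over the list, the epithelial level ranged from 1318 to 20334 CPM in NC and from 3276 to 21228 CPM in VSD, and the ciliated cell level from 264 to 3737 and from 651 to 2207 CPM. Without NC 2, 14 epithelial microRNAs and 4 of 6 ciliated cell microRNAs were higher at an unadjusted p under 0.05, against 16.9% of all tested microRNAs in that fit, and the list medians were 2.35 and 0.85. The part that cells of epithelial tissue in the blocks had in the other differences was not tested.

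**Figure D4:**
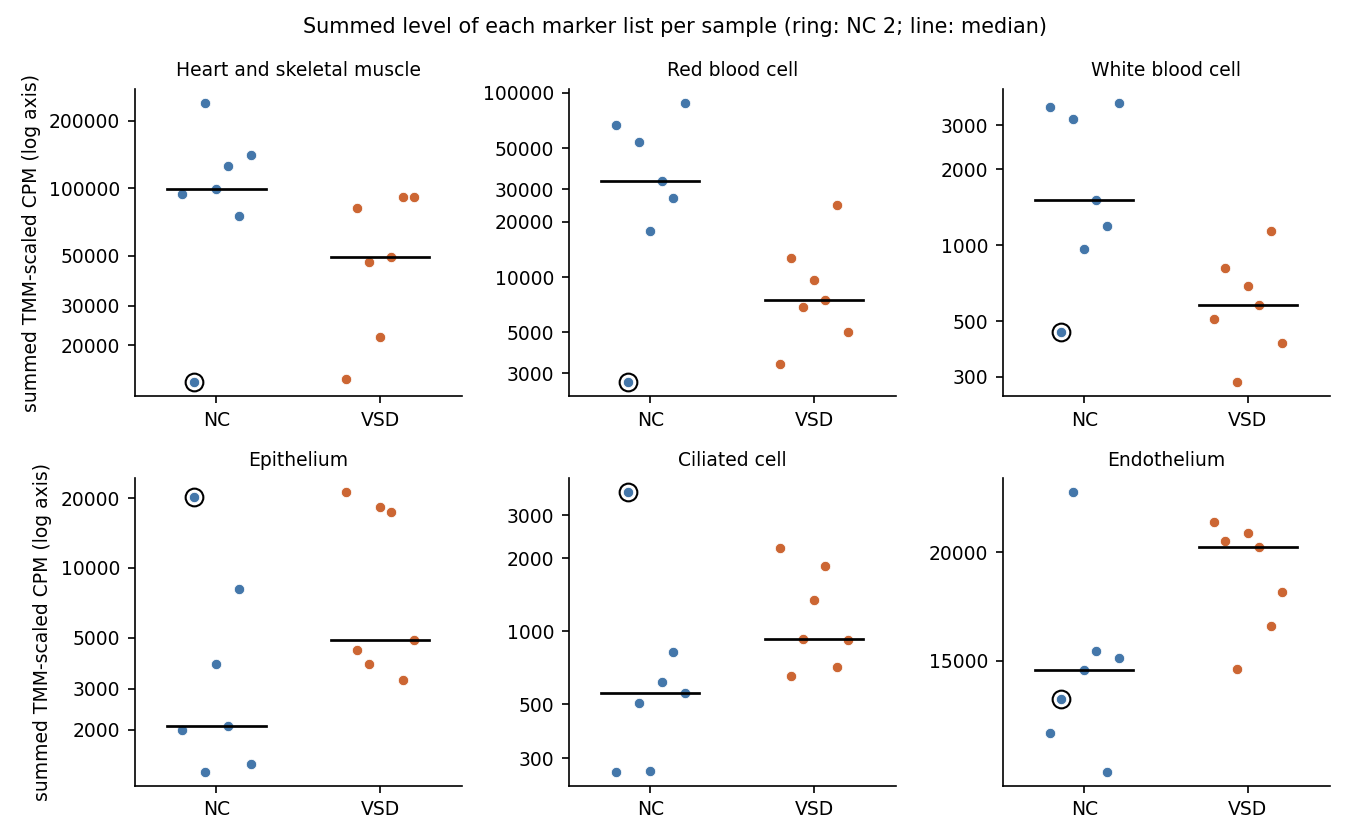
Summed TMM-scaled CPM on a log axis of 6 marker lists in each NC (blue) and VSD (orange) heart, with the group median as a line and a ring around NC 2. NC 2 is the lowest of the NC hearts for the muscle, red cell and white cell lists and the highest for the epithelial and ciliated cell lists.

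Of the 10 tested members of the inflammation list, miR-146a-5p and miR-155-5p were higher and none lower at an unadjusted p under 0.05. This stood beside 6.61% higher among all tested microRNAs. The list median was 0.28. Without NC 2, 1 was higher and the median was 0.13. In non-VSD against NC the list median was 0.76, farther from NC than in the VSD hearts. miR-155-5p, induced in activated macrophages and lymphocytes, had a median of 68.1 CPM in NC (42 to 84.3) and 87.1 CPM in VSD (55.3 to 277), log2 0.85 ± 0.35 (SE), edgeR's adjusted p = 0.197. Unlike miR-146a-5p, which was even across the VSD hearts, miR-155-5p was highest in VSD 2 and VSD 3 (209 and 277 CPM), and without VSD 3 its log2 fold change was 0.41.

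The miR-29 family, which represses collagens and other matrix proteins, was scarce in these hearts. Of its 5 tested members, 3 were higher and none lower at an unadjusted p under 0.05, beside 6.61% higher among all tested. The list median was 0.63. miR-29b-3p, a DE-microRNA, had a median of 4.2 CPM in NC (1.87 to 5.51) and 7.62 CPM in VSD (4.34 to 13.6), log2 1.15 ± 0.30 (SE), edgeR's adjusted p = 0.0645. All VSD hearts but VSD 6 lay above every NC heart. miR-29a-3p had 25 and 34.4 CPM (log2 0.53 ± 0.25, SE), and miR-29c-5p had 16.5 and 19.5 CPM (log2 0.63 ± 0.29, SE), both highest in VSD 3 and overlapping with NC. Without VSD 3 the log2 fold changes of miR-29a-3p and miR-29c-5p were 0.21 and 0.29, and the list median was 0.35. Without NC 2, 2 members were higher.

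A list of miR-130 and its relatives holds both arms of the miR-130a, miR-130b, miR-301a and miR-301b hairpins. Of its 8 tested members, 4 were higher and none lower at an unadjusted p under 0.05, beside 6.61% higher among all tested. The list median was 0.35. Without NC 2, 2 were higher and 1 lower, and the median was 0.28. Of the 3 members whose sequence was matched and holds the miR-130 seed, 2 were higher with all libraries in the fit. miR-301a-3p, a DE-microRNA, had a median of 41.9 CPM in NC (21.5 to 74.1) and 90.9 CPM in VSD (42.8 to 191), log2 1.18 ± 0.33 (SE), edgeR's adjusted p = 0.0716. VSD 3 was highest, and VSD 4 and VSD 6 lay within the NC range. For miR-130a-3p, known in angiogenesis, the medians were 95.3 and 164 CPM (log2 0.73 ± 0.24, SE), and for miR-301b-3p 32.7 and 57.7 CPM (log2 0.81 ± 0.32, SE). The passenger arm miR-130a-5p, whose hairpin lies opposite Mir3590, was also higher (9.37 and 13.6 CPM, log2 0.45 ± 0.19, SE).

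miR-190a-5p, whose hairpin lies in the span of the talin gene Tln2, was the upregulated DE-microRNA with the lowest p after miR-146a-5p. It had a median of 16 CPM in NC (9.82 to 36.5) and 49 CPM in VSD (22.4 to 75.6), log2 1.39 ± 0.34 (SE), edgeR's adjusted p = 0.0645. VSD 4 and VSD 6 lay within the NC range, of which NC 7 was the top. miR-497-5p, of the miR-15/16 seed family that slows the cell cycle, had 8.67 CPM (7.76 to 23.3) and 22.9 CPM (15.6 to 40.7), log2 1.03 ± 0.31 (SE). Another member of the seed, miR-15b-5p, was lower (268 and 214 CPM, log2 -0.63 ± 0.29, SE), and these were the only 2 of the 5 tested microRNAs matched to this seed at an unadjusted p under 0.05. The miR-15/16 list, which also holds passenger arms, had 1 of 9 tested members higher and 1 lower, beside 6.61% and 12.6% of all tested. Without NC 2 the list had 2 higher and 2 lower.

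The neural and neuroendocrine list had members in both directions. miR-7b, which differs from miR-7a-5p by U10A, had a median of 21.8 CPM in NC (7.08 to 79.9) and 85.5 CPM in VSD (26 to 349), log2 2.04 ± 0.63 (SE), edgeR's adjusted p = 0.0915. VSD 3 was far the highest, and NC 2 held the highest control level. The near-identical miR-7a-5p, 5832 CPM in NC and 4889.8 CPM in VSD, had a log2 fold change of -0.84 ± 0.43 (SE). Reads could have been split between the pair in counting. miR-137-3p had 1.47 CPM (0.307 to 13) and 11.1 CPM (7.9 to 37.5), log2 1.88 ± 0.66 (SE). Both arms of miR-128, which is also made in muscle, were lower, miR-128-3p from 488 to 384 CPM and miR-128-1-5p from 4.55 to 2.61 CPM. In all, 2 of 13 tested members of the list were higher and 2 lower at an unadjusted p under 0.05. This stood beside 6.61% higher and 12.6% lower among all tested. The list median was 0.65. Without NC 2, 8 were higher and 3 lower (median 0.92), where 16.9% of all tested were higher in that fit. Under library size scaling 4 were higher and none lower (median 0.93).

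Seed families with 2 lower members included miR-148, miR-101 and miR-92. miR-148b-3p, which represses the DNA methyltransferase Dnmt1, had a median of 3794 CPM in NC (1951 to 8330.4) and 1889 CPM in VSD (1594 to 2816), log2 -1.02 ± 0.26 (SE), edgeR's adjusted p = 0.0645. The abundant miR-148a-3p had 58914 and 40509 CPM (log2 -0.56 ± 0.24, SE). For each, 4 VSD hearts lay below every control. miR-101a-3p and miR-101b-3p, repressors of the Polycomb methyltransferase Ezh2 that differ by A16G, were picked out after their values had been seen. Their log2 fold changes were -0.74 ± 0.21 and -0.69 ± 0.24 (SE), and 6 and 5 of the 7 VSD hearts, respectively, lay below all NC hearts.

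The clusters linked to proliferation, miR-17-92 and its paralogs, had 3 of 21 tested members higher and 3 lower at an unadjusted p under 0.05. This stood beside 6.61% higher and 12.6% lower among all tested. The list median was 0.04. Without NC 2, 2 were higher and 4 lower, and under library size scaling 7 were higher and 1 lower, with a median of 0.46. miR-106b-3p, from Mcm7, was a downregulated DE-microRNA with medians of 799 and 375 CPM (log2 -1.25 ± 0.37, SE), and 5 VSD hearts lay below every control. miR-92a-3p (log2 -0.78 ± 0.25, SE) and miR-25-3p (log2 -0.83 ± 0.28, SE), which share a seed, were lower as well. miR-20b-5p went from 10.2 to 22.5 CPM (log2 0.75 ± 0.28, SE), and the upregulated DE-microRNA miR-19b-1-5p stood at the limit of detection, at 1.18 CPM in NC (0 to 1.61) and 2.41 CPM in VSD (1.22 to 3.6). Of the let-7 family, which accumulates as cells differentiate, 1 of 20 tested members, let-7f-5p, was lower (log2 -0.47 ± 0.15, SE), beside 12.6% of all tested. The list median of -0.16 turned to 0.26 under library size scaling. Without NC 2, 4 members of the let-7 list were lower, in a fit in which 167 of all 474 tested differed in either direction.

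**Figure D5:**
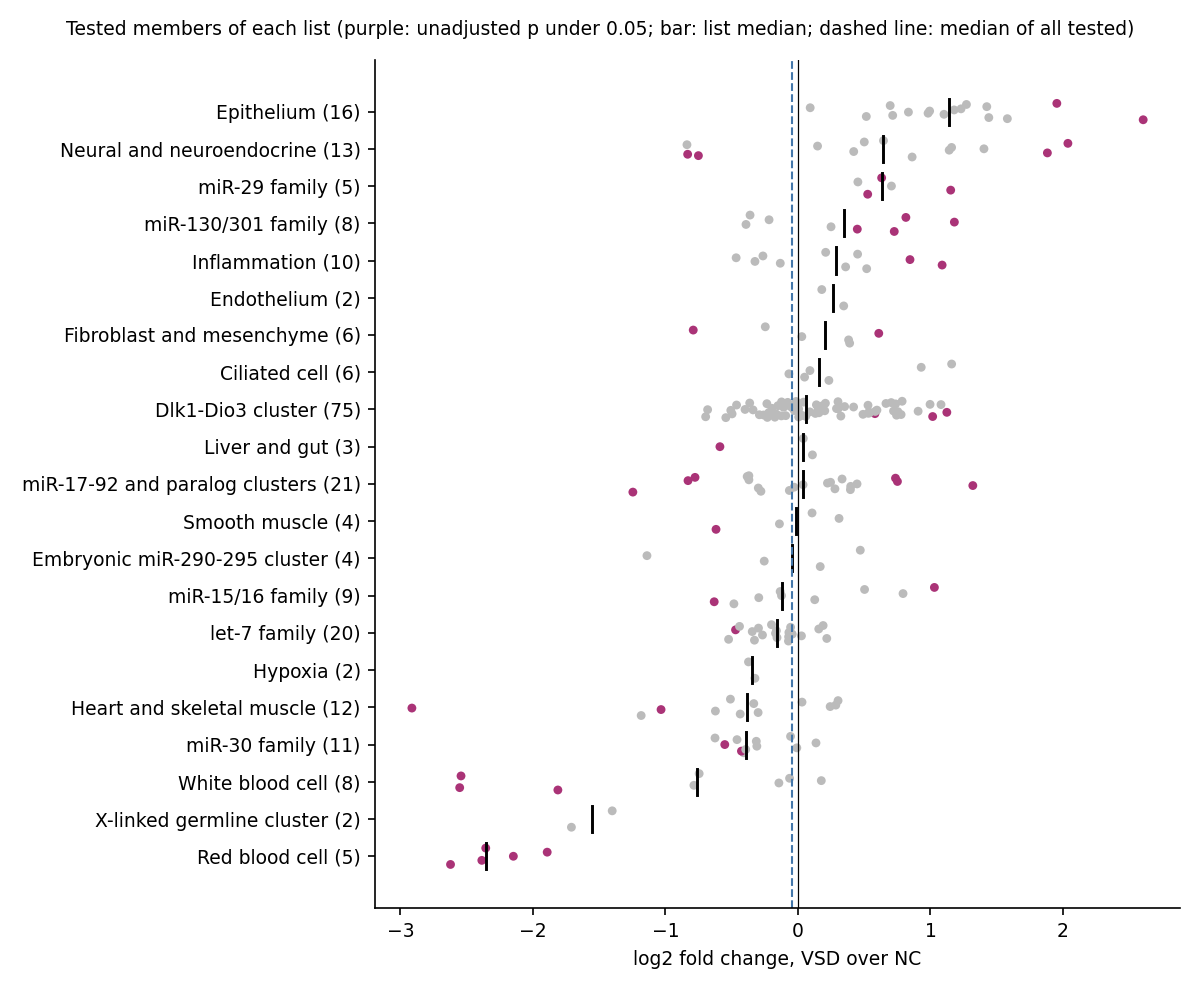
Log2 fold change of VSD over NC (x axis) for the tested members of each of 21 lists (y axis, number tested in brackets), with the list median as a bar, members at an unadjusted p under 0.05 in purple and the median of all tested microRNAs as a dashed line. The red cell list lies farthest to the left and the epithelial list farthest to the right.

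Of 153 hairpins with both arms tested, 8 had both at an unadjusted p under 0.05 and 37 had 1. In all 8 (miR-130a, miR-142, miR-144, miR-148b, miR-1839, miR-193b, miR-451 and miR-532) both arms moved in the same direction, upward for miR-130a and downward for the others. By seed, 50 families had at least 2 tested members. Of these, 3 had 2 or more members higher at an unadjusted p under 0.05 (the seeds of miR-181, miR-29 and miR-130) and 4 had 2 or more lower (miR-1, miR-101, miR-148 and miR-25/92). Over all tested microRNAs 19.2% were at that threshold, 6.61% higher and 12.6% lower. Arms of a hairpin and members of a seed family need not be independent of each other, and whether these counts exceed that background was not tested.

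Of the other microRNAs that the study took from the myocardium to PCR, miR-293-5p, of the cluster expressed in early embryonic cells, had a median of 13.6 CPM in NC (1.66 to 27.7) and 5.07 CPM in VSD (1.52 to 18), log2 -1.14 ± 0.61 (SE) with an unadjusted p of 0.0791. The lowest libraries were VSD 1 and NC 2. Too few reads were counted of miR-874-5p, of miR-497-3p and of miR-3580-3p for a test. miR-3580-3p reached at most 1.23 CPM in NC and 0.208 in VSD, and miR-497-3p was counted in no NC heart and reached 0.542 CPM in VSD. miR-874-5p reached 0.268 CPM in NC and 1.04 CPM in VSD. The level at which a microRNA could go unseen, not scaled by TMM, was 1.77 CPM in VSD 3 and 0.32 to 0.687 CPM in the NC hearts.

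The VSD hearts were also compared directly with the 7 exposed hearts whose septum was intact, in a fit of all 21 myocardium libraries. Of 483 microRNAs tested, 25 were DE-microRNAs (5.18%), 19 higher (3.93%) and 6 lower (1.24%) in VSD. At an unadjusted p under 0.05 there were 56 (11.6%), and 0 (0%) passed the adjusted threshold of edgeR. Both exposed groups stood against the same NC hearts, so that their differences from NC are not independent of each other. For miR-146a-5p the log2 difference from NC was 0.83 in the non-VSD group, and VSD exceeded non-VSD by 0.30 ± 0.19 (SE, edgeR's adjusted p = 0.475). miR-6329 stood at -1.24 in non-VSD, and VSD differed from non-VSD by -0.32 ± 0.29 (SE, edgeR's adjusted p = 0.582). Neither of the 2 was thus shown to differ between hearts with and without the defect.

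Of the 67 named microRNAs tested against NC, 10 others differed between VSD and non-VSD hearts at an unadjusted p under 0.05. Among all 483 tested in that fit 11.6% did, and each of the 10 had edgeR's adjusted p = 0.426. miR-7b was higher in VSD by 2.24 ± 0.71 (SE) on the log2 scale, and its difference of non-VSD from NC was -0.18. miR-181a-5p (0.33 ± 0.14), miR-181c-5p (0.50 ± 0.21), miR-20b-5p (0.77 ± 0.25), miR-29a-3p (0.48 ± 0.21), miR-30a-5p (0.38 ± 0.17) and miR-449a-5p (2.39 ± 1.08) were higher in VSD than in non-VSD as well. miR-3473 (-0.75 ± 0.32), miR-22-3p of muscle and mesenchyme (-0.64 ± 0.29) and miR-126a-3p (-0.39 ± 0.18) were lower. miR-30a-5p and miR-126a-3p stood closer to NC in the VSD than in the non-VSD hearts, with log2 differences of -0.76 and 0.77 for non-VSD against NC. The red cell microRNAs miR-144-3p and miR-451-5p had differences between VSD and non-VSD of -1.31 ± 0.65 and -0.27 ± 0.61 (SE), neither at an unadjusted p under 0.05. None of the 5 red cell members differed between VSD and non-VSD at that threshold (list median -0.34), and in non-VSD against NC 4 of the 5 were lower, with a list median of -1.65. Without VSD 3 the difference of miR-29a-3p between VSD and non-VSD was 0.20. Other lists also stood away from NC in the non-VSD hearts. Their medians against NC were 0.63 for the miR-29 list, 0.40 for the miR-130 list, 0.76 for the inflammation list and -0.63 for the white cell list. The medians of VSD against non-VSD were 0.20, 0.02, -0.14 and -0.20 for the same lists. For the epithelial list the median was -0.26 in non-VSD against NC and 1.32 in VSD against non-VSD. For the ciliated cell list these medians were -1.06 and 1.17. At an unadjusted p under 0.05, 4 of 17 epithelial and 5 of 6 ciliated cell members were higher in VSD than in non-VSD, and none was lower. Of all 483 tested, 11.6% differed in either direction.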

How the data were processed

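Small RNA was extracted from wax blocks of fetal rat heart with a kit for fixed tissue, libraries were made with a TruSeq small RNA kit and sequenced on an Illumina instrument, and bcl2fastq 2.19 and DESeq are named in the submitters' processing notes. The aligner and the microRNA annotation are not given in the sources used here. The deposited files hold, for each library, the read counts per microRNA as the authors made them, and beside them normalized counts, which are a signal scaled by the authors by library. They also hold the authors' own fold changes and p-values, which were not used.

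The raw counts of 7 NC and 7 VSD libraries were grouped by label and tested with edgeR 4.0.16 in R 4.3.3 (TMM factors, filterByExpr at its count thresholds of 10 per library and 15 in total, quasi-likelihood F test, Benjamini-Hochberg adjustment over the 469 microRNAs tested). VSD was set against non-VSD in the same way in a fit of all 21 libraries. No litter, dam or batch is labelled. Totals were compared by an exact permutation test. Alternatives were DESeq2 1.42.0, limma 3.58.1, other scalings, filters and library weights, a replicate block, and leaving out each library, and the test was checked on simulated data. No column was left without a sample. Replicates of a group differed by far more than sampling noise. Detected microRNAs numbered 534 to 609 per library.

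Named microRNAs were those at an adjusted p under 0.05, the 10 DE-microRNAs of lowest p in each direction, those whose groups did not overlap, the ones that the study took to PCR, defining markers of the cell type lists, the 5 most abundant in NC, and list members of lowest p. Their sequence and seed partners were added, and others are said to have been picked out after their values had been seen. The microRNAs, the 21 lists and the comparison were chosen with earlier results of these data known. Figures were drawn with matplotlib 3.10.9. Sequences and gene spans are from RefSeq GRCr8, and the strand of the host genes was not compared.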

Additional observations from a re-analysis of the deposited data

Results flagged for a closer look

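The named microRNAs in NC and in VSD made up 134 groups of 7 hearts, on edgeR's log2 CPM scale with a prior count of 2. In each, the gap of the extreme heart to its nearest neighbour was taken as a share of the group's range. In 10 groups this share was larger than Dixon's critical value for 7 samples, where chance gives about 1 in 20 groups. NC 2 was the low extreme in 6 of them, mostly muscle microRNAs. Its gap was 0.636 of the NC range for miR-486, 0.584 for miR-1b, 0.637 for miR-133a-3p, 0.723 for miR-208b-3p, 0.657 for miR-499-5p and 0.579 for miR-155-5p. In NC 2 the myosin-coded miR-208b-3p stood at 47.8 CPM and the next lowest control at 527 CPM, and miR-133a-3p stood at 1245 and 5939 CPM in the same hearts.

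The endothelial miR-126a-3p was high in NC 3, at 22029 CPM against at most 13733 CPM in the other NC hearts, a gap of 0.59. The liver microRNA miR-122-5p was low in VSD 7, with a gap of 0.586 (25.9 CPM). miR-345-3p was high in VSD 5, with a gap of 0.711 (289 CPM), and miR-30c-2-3p was low in VSD 3, the smallest library, with a gap of 0.704 (110.0 CPM).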

How the results depend on the processing

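The count of 32 DE-microRNAs (12 up, 20 down) went to 52 without a filter on low counts, to 21 with at least 10 counts in every library, to 74 with limma's library weights and to 79 without both NC 2 and VSD 3, and from 27 to 83 on leaving out single libraries, the highest without NC 2. Scaling turned its split, to 33 up and 12 down by library size and to 24 up and 12 down by the authors' library totals, and limma on log2(CPM + 1) gave 24 up and 15 down. The 2 microRNAs at an adjusted p under 0.05 became 46 by DESeq2, 38 by library size, 23 by the authors' totals, 1 without a filter, 15 with the strict filter, 95 with library weights, 25 with the non-VSD hearts in the fit and 56 without NC 2 and VSD 3. Leaving out single libraries gave 0 to 77: 0 without NC 1, NC 3, VSD 1 or VSD 5 (with 75 to 85 at an unadjusted p under 0.05), 1 without VSD 2 or VSD 4, 4 without NC 4, 5 without NC 6, 20 without VSD 6 and 77 without NC 2.

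With the replicate number as a replicate block, edgeR gave 0 at an adjusted p under 0.05 (74 unadjusted) and 31 DE-microRNAs (17 up, 14 down). The numbers did not pair the hearts, since same-numbered hearts correlated at -0.588 to 0.521 and 1 of 7 correlated best with its own number. The 25 DE-microRNAs of VSD against non-VSD became 14 with the replicate block and 16 to 37 on leaving out single libraries (16 without non-VSD 1 or VSD 1), and the adjusted count was 0 in every fit run. The log2 difference of total counts ranged from -0.0041 (without NC 4) to 0.41 (without VSD 3, exact permutation p = 0.0431). Of 67 named microRNAs, each under 23 or 24 alternatives, 63 kept their direction throughout. The others were miR-208a-3p (-0.084 without NC 2 and VSD 3), miR-208b-3p (0.11 by library size, 0.059 by the authors' totals), miR-21-5p (0.16 and 0.11 by the same) and miR-122-5p (-0.56 by limma on log2(CPM + 1), -0.40 with library weights, -0.51 with the replicate block, -0.52 without NC 2 and VSD 3, and -0.84 to 0.36 without single libraries). The cause of these changes was not tested.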

Other observations

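Of the Dlk1-Dio3 cluster, the imprinted microRNA array expressed from the maternal chromosome in fetal tissues and placenta, 75 members of a list drawn up by name were tested. miR-376a-3p, miR-136-5p and miR-345-3p were higher at an unadjusted p under 0.05 and none was lower, where 6.61% of all tested were higher. The list median was 0.06, beside -0.05 over all tested. miR-376a-3p, a DE-microRNA, had a median of 4.58 CPM in NC (1.53 to 15.7) and 11.8 CPM in VSD (9.76 to 18.7), and miR-136-5p had 14.4 CPM (8.56 to 43.7) and 43.8 CPM (12.3 to 65.3). Without NC 2, which had the highest summed level of the cluster (45771 CPM), 20 members were higher at an unadjusted p under 0.05, and 16.9% of all tested microRNAs were higher in that fit. The reference places miR-345-3p at chr6:133518456-133518477 (GRCr8, plus strand), before the other hairpins of the list on chromosome 6, and without VSD 5 its log2 fold change was 0.27.

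With all libraries in the fit, lists with at most 1 member at an unadjusted p under 0.05 included those of hypoxia, liver and gut, the embryonic miR-290-295 cluster and the X-linked germline cluster. miR-210-3p, the microRNA that hypoxia-inducible factor switches on, had medians of 763 CPM in NC and 434 CPM in VSD (log2 -0.32 ± 0.35, SE), and neither of the 2 hypoxia members had an unadjusted p under 0.05. Of 3 tested liver and gut members miR-192-5p was lower (409 and 256 CPM, log2 -0.59 ± 0.19, SE). No tested member of the miR-290-295 cluster (4) or of the X-linked cluster (2 of 19 listed) had an unadjusted p under 0.05, and without NC 2, 1 of each was lower. Of the 6 tested fibroblast and mesenchyme microRNAs, miR-218a-5p, coded in the Slit genes, was higher, with 6 VSD hearts above every control (medians 3673 and 5542 CPM, log2 0.61 ± 0.18, SE, edgeR's adjusted p = 0.0803), and miR-22-3p was lower (6670.2 and 3359 CPM, log2 -0.79 ± 0.33, SE). Without NC 2, 3 members of that list were higher and 1 lower.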
